A study of Mus musculus with 12 samples.

Results

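The values of 3 mouse microRNA genes, Mir320, Mir484 and Mir5099, are described in embryonic stem (ES) cells with and without Drosha. They were chosen by name, as microRNAs that have been reported to be made without Drosha, and each had 1 row of its own in every RNA table. They are 3 of 36883 rows, of which 355 in the short RNA table carry the name of a single microRNA gene. The series compared wild-type and Drosha-deficient ES cells for DNA methylation and for RNA. Per the labels of the methylation samples, the wild-type line was AB1 (129Sv/Ev) and the deficient cells were derived from AB1, while the RNA labels give the genotype only. The sources used here do not say which part of Drosha was disrupted or how many clones were used. Cells of both genotypes were kept in medium with serum and leukemia inhibitory factor, and for each genotype 1 library was made from short RNA, 1 from long RNA and 1 from mRNA.

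Most microRNAs are made in steps. The nuclear ribonuclease Drosha, with its RNA-binding partner Dgcr8, cuts a hairpin out of a long primary transcript, exportin-5 carries the hairpin to the cytoplasm, and Dicer trims it to the mature microRNA that an Argonaute protein uses. A minority of hairpins skip the Drosha cut, among them mirtrons released by splicing, hairpins from small nucleolar RNAs or tRNAs, and the hairpins of miR-320 and miR-484, which have been reported to arise as short capped transcripts that already have the size of a hairpin. A microRNA of this kind would still need Dicer, and its seed, bases 2 to 8 from the 5′ end, still sets which transcripts it pairs with.

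The sequences are shown because the reported bypass of Drosha concerns the hairpin itself. They were taken from RefSeq (GRCm38.p6), in which 2 of the 3 members had a hairpin entry and 1 had a mature entry. The Mir484 hairpin lies at chr16:14159626-14159692 on the plus strand, and its mature microRNA is listed on the 5′ arm at chr16:14159630-14159651. The Mir5099 hairpin lies at chr12:36816205-36816278 on the plus strand. Mir293, of the Mir290 cluster that is abundant in ES cells, lies at chr7:3220343-3220422 on the plus strand and is given as a hairpin whose short RNA was lower in Drosha-deficient cells. Capitals mark the seed in the mature sequence and the listed mature microRNAs in the hairpins of Mir484 and Mir293.
miR-484: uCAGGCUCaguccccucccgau
Mir484 hairpin: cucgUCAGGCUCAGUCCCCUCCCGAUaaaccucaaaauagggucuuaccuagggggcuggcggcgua
Mir5099 hairpin: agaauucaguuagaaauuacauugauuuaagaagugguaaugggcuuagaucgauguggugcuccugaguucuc
Mir293 hairpin: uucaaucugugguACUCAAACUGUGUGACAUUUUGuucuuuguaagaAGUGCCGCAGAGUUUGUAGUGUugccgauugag

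The Mir484 hairpin is 67 bases long, and its mature microRNA begins after 4 bases. The Mir293 hairpin has 13 bases before its 5′ mature sequence. Among the 126 microRNA rows compared in short RNA that matched a RefSeq hairpin with a 5′ mature sequence, the median was 12 bases and 14 rows had at most 4. Over all 814 mouse hairpins with a 5′ mature sequence the median was 6 bases, and 219 (26.9%) had at most 4. How far a database entry extends is a choice of its curators, so these counts describe the entries and not the transcript in the cells. The seed of miR-484, CAGGCUC, was shared by 0 other mature mouse microRNAs of the table. The predicted fold of the Mir484 hairpin had 18 base pairs, which is 53.7% of its bases, and an energy of -24.6 kcal/mol. Of 139 matched hairpins among the rows compared in short RNA, 0 had a smaller share of paired bases. Its GC content was 58.2%, against a median of 47.6% over those hairpins.

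The Mir5099 hairpin is 74 bases long and was predicted to pair along nearly all of its length, with 29 base pairs, 78.4% of its bases, and -26.6 kcal/mol. Of the same 139 hairpins, 113 had a smaller share of paired bases, and the median was 72%. By energy per 100 bases the order differed. Only 21 of these hairpins were predicted to fold more weakly than Mir5099, and 27 more weakly than Mir484. Its GC content of 37.8% was below that median. The letters UGU, a motif known from the loop of hairpins that Drosha and Dgcr8 cut, were searched on the hairpin strand at any position. They occur in the Mir5099 and Mir293 hairpins and not in that of Mir484, and 92.1% of the 139 hairpins and 80.8% of all 1005 mouse hairpins of the table hold them.

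**Figure D1:**
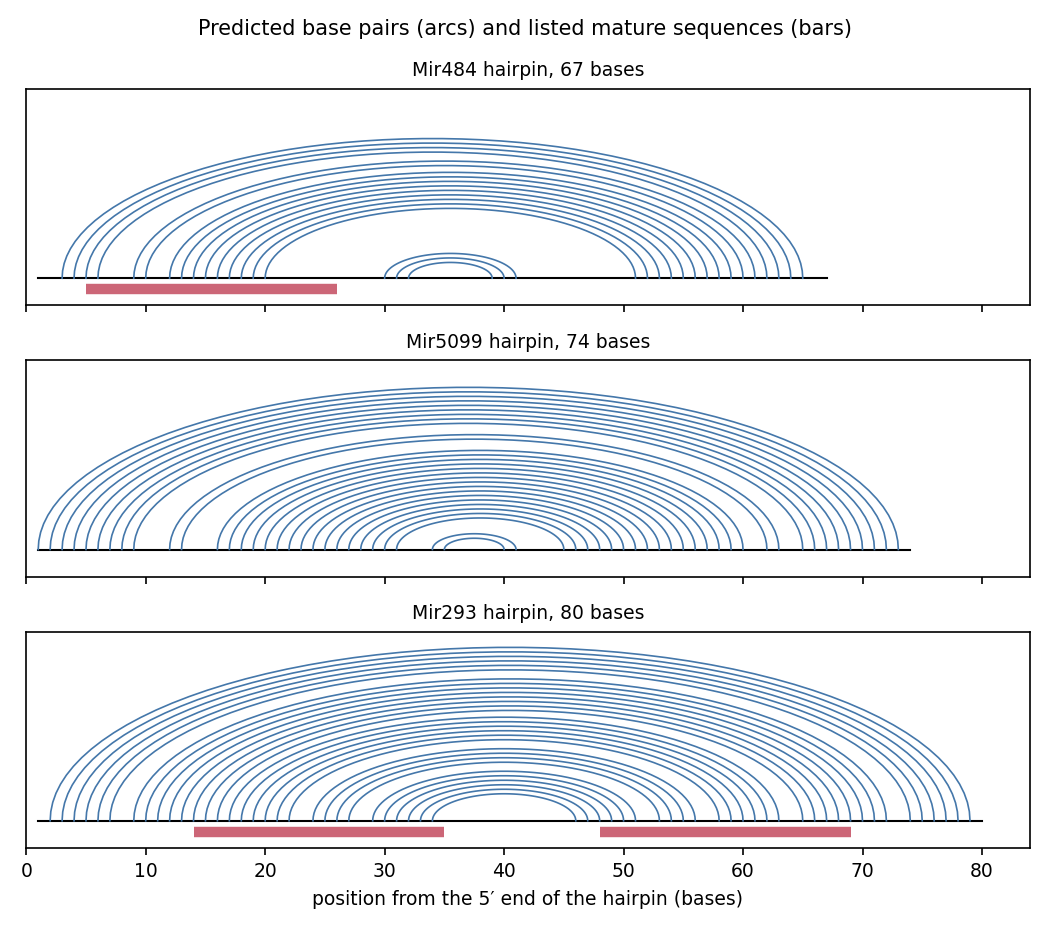
Arcs join bases predicted to pair in the RefSeq hairpins of Mir484 (67 bases), Mir5099 (74 bases) and Mir293 (80 bases), against the position from the 5′ end in bases, and bars mark listed mature sequences. The 18 arcs of Mir484 leave unpaired bases inside the outer stem and around the loop, its bar starts at base 5, and the 29 arcs of Mir5099 span nearly its whole length.

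All levels are in FPKM, the fragments assigned to a row per kilobase of its length and per 1000000 fragments of the library. A row counts as higher or lower in Drosha-deficient cells if log2((Drosha-deficient FPKM + 1)/(wild-type FPKM + 1)) reaches 1 in size, a 2-fold difference. It was compared when the authors' status was OK and 1 of both libraries reached 1 FPKM. All 3 members passed this filter in every fraction. With 1 library per genotype and fraction there was no replicate, so each difference compares 2 libraries and carries no p-value. On loci as short as a hairpin, FPKM values are whole multiples of what 1 read is worth, which gave the number of reads behind each level. Their 95% Poisson intervals cover counting error only. By this estimate the values were scaled to 2680000 (wild type) and 3060000 (Drosha-deficient) fragments in short RNA, and to between 18700000 and 25500000 in long RNA and mRNA. This scale is called library size here. It would include any scaling between libraries, so it need not be the number of fragments sequenced. Because the 3 tables were normalised apart from each other, no level was set against one of another table.

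The check of the genotype came from Drosha itself, whose mRNA level was 42.1 FPKM in wild-type and 6.22 FPKM in Drosha-deficient cells. The 8 ES cell markers summed to 2132 FPKM in wild-type and 2180 FPKM in Drosha-deficient mRNA, with 0 of 8 called. Fibroblast markers were lower in the deficient mRNA library, 5 of 7 called and a sum of 273.6 against 99.8 FPKM, and so were trophoblast markers, with all 5 that passed the filter of 6 listed called and a sum of 158.0 against 34.1 FPKM, none of either list being at 0. Of all mRNA rows, 7.93% were called lower and 8.64% higher. Of 3 neural markers 2 were higher, with a sum of 8.504 against 19.86 FPKM. Of mesoderm markers 1 of the 2 compared was lower (T, from 4.33 to 0.0387 FPKM), and of primitive endoderm markers 1 of the 2 compared. The part of these differences in the results on the 3 members was not tested. In such bulk libraries, fewer cells of a type and less RNA per cell cannot be told apart. Structural RNAs such as 7SK and the Y RNAs differed too, with a median log2 difference over 6 rows of 1.51 in short RNA, -0.20 in long RNA and 0.97 in mRNA, while the median of all rows compared lay between -0.04 and 0.01.

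In short RNA the 3 members did 3 different things. Mir320 was far higher in Drosha-deficient cells, Mir5099 was within 2-fold, and Mir484 was listed at 0. Of all 2597 rows compared in short RNA, 33.2% were called in either direction, 14.8% higher and 18.4% lower. Of the 159 microRNA rows, 148 (93.1%) were called lower, 6 (3.77%) higher and 5 neither, and the median log2 difference of the 156 other microRNA rows was -5.76. In Drosha-deficient cells 95 of those 156 rows were listed at 0. Mir484, though reported as independent of Drosha, was lower in these libraries, with 44 reads in wild-type and 0 in Drosha-deficient cells. Whether its processing needs Drosha was not tested. Mir320 was higher both in FPKM and in reads, whereas Mir5099 was within 2-fold in FPKM but 2.57-fold lower in reads relative to library size, and lower (log2 difference -1.06) when centred on structural RNAs.

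**Figure D2:**
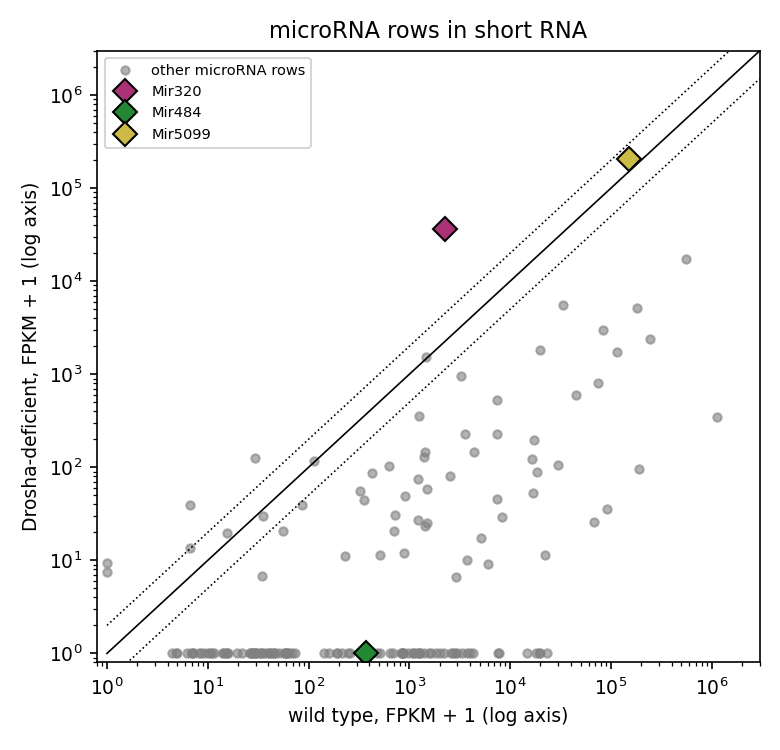
Each point is 1 of 159 microRNA rows in short RNA, with wild-type FPKM + 1 across and Drosha-deficient FPKM + 1 up, both on log axes, with a solid line for equal levels and dotted lines for a 2-fold difference. Mir320 lies far above the lines at 2270 and 36857 FPKM, and 5 other rows lie above the upper dotted line at much lower levels. Mir5099 lies between the dotted lines at the highest deficient level, and Mir484 lies on the floor among the rows listed at 0 in Drosha-deficient cells.

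Mir320 lies at chr14:70443510-70443591 and is the gene of miR-320, a microRNA found across animal tissues. Its short RNA level was 2270 FPKM in wild-type and 36857 FPKM in Drosha-deficient cells, 16.2-fold higher (log2 difference 4.02). Behind these levels stood 359 reads (323 to 398) in wild-type and 2277 reads (2184 to 2372) in Drosha-deficient cells. Per 1000000 fragments that is 133.9 and 743.7 reads, a ratio of Drosha-deficient to wild type of 5.56 (4.97 to 6.23). Both measures put the row higher, and it moved from rank 48 of 159 microRNA rows in wild-type cells to rank 2 in Drosha-deficient cells. Its neighbours by wild-type level did not follow it. Mir34c, a p53 target, went from 2508 to 79.4 FPKM, and Mir494 from 2184 FPKM to 0.

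Of the 6 microRNA rows called higher in short RNA, Mir320 had the highest level in both genotypes. Mir8105 had 1 read in wild-type and 3 in Drosha-deficient cells, Mir6240 had 0 and 1, and Mir3070b had 1 in each. The other two, Mir6239 and Mir5136, are listed over wider loci, and their reads were not recovered. Mir6239 was at 0 and 8.26 FPKM, and Mir5136 at 28.2 and 124.4 FPKM. Counted in reads per library, 1 of 131 microRNA rows of 60 to 140 bases (0.763%) was higher in Drosha-deficient cells, and that row was Mir320, while 96.9% were lower, Mir484 and Mir5099 among them. Some of the lower rows rest on few reads too, such as Mir1934 and Mir463, each with 1 read in wild-type and 0 in Drosha-deficient cells. The rows named here were described after their values were seen.

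Mir5099 had by far the most short RNA of the 3 members. Its level was 151520 FPKM in wild-type and 207566 FPKM in Drosha-deficient cells, 1.37-fold higher and below the 2-fold rule (log2 difference 0.45). It ranked 6 of 159 in wild-type cells, between Mir7-2 and Mir295, and 1 in Drosha-deficient cells. The reads gave the opposite direction. There were 20717 reads (20436 to 21001) in wild-type and 9188 (9001 to 9378) in Drosha-deficient cells, which relative to library size is 2.57-fold lower (2.51 to 2.64, log2 -1.36). The FPKM difference also turned negative, to -1.06, when it was centred on the structural RNAs. Under both measures it stood near the top of the microRNA rows. It ranked 7 of 159 from the top by log2 difference of FPKM and 16 of 131 by that of reads.

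Mir484 stood with the bulk of the microRNA rows. Its short RNA level was 372.8 FPKM in wild-type cells, from 44 reads (32.0 to 59.1), and it was listed at 0 in Drosha-deficient cells. A count of 0 allows up to 3 reads, or 99.5 FPKM, so against that floor the row was at least 16.7-fold lower in reads relative to library size and at least 3.75-fold lower in FPKM. The FPKM of 1 read at this length was extrapolated in the Drosha-deficient library, so the 99.5 FPKM and the 3.75-fold are approximate. With the counting error of the 44 reads included, the 95% interval of the read ratio begins at 13.1-fold. Its neighbours by wild-type level were lower too. Mir674 was also listed at 0, from 367.8 FPKM, while Mir1983 kept 85.5 of 426.0 FPKM. By its log2 difference of -8.55 Mir484 ranked 113 of 159, in the lower part of the order, although this value depends on the pseudocount because of the 0.

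**Figure D3:**
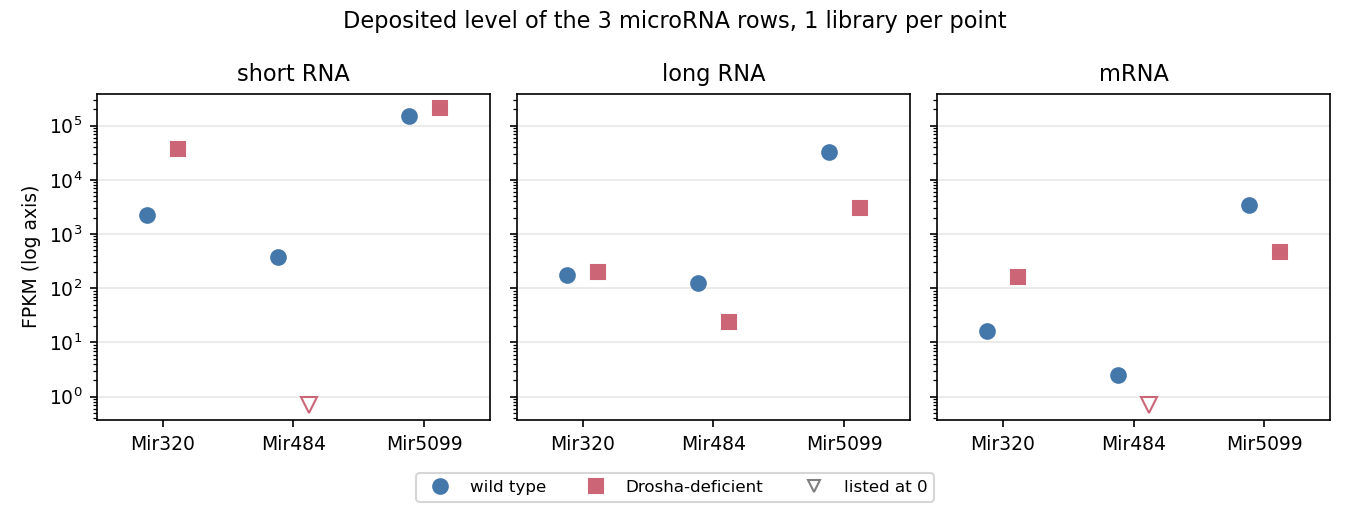
Points give the deposited FPKM (log axis) of Mir320, Mir484 and Mir5099 in wild-type (circles) and Drosha-deficient (squares) libraries of short RNA, long RNA and mRNA, 1 library per point, with open triangles for rows listed at 0. Mir320 is higher in the deficient libraries of short RNA and mRNA, Mir484 is lower in short and long RNA and rests on 1 read in mRNA, and Mir5099 is lower in long RNA and mRNA and within 2-fold in the FPKM of short RNA, where its reads were 2.57-fold lower relative to library size.

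FPKM and reads gave different sizes because the FPKM of 1 read differed between the libraries. In the short RNA libraries 1 read on 1000 bases was worth 0.373 FPKM in wild-type and 0.327 FPKM in Drosha-deficient cells. On a locus of 74 bases, the length of Mir5099, 1 read was worth 7.31 and 22.6 FPKM. On the 82 bases of Mir320 it was worth 6.32 and 16.2 FPKM, and on the 67 bases of Mir484 8.47 and 33.2 FPKM. The 33.2 FPKM was extrapolated, because no length under 70 bases gave this value in that library. The factor of Mir484 below rests on it. At equal reads relative to library size, the FPKM of the 3 rows would thus be 2.92-fold (Mir320), 4.47-fold (Mir484) and 3.53-fold (Mir5099) higher in the Drosha-deficient library. The same quantity was between 1.41 and 1.67 in long RNA and mRNA. Each FPKM fold of a hairpin row, of the members and of the other microRNAs alike, contains this factor.

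**Figure D4:**
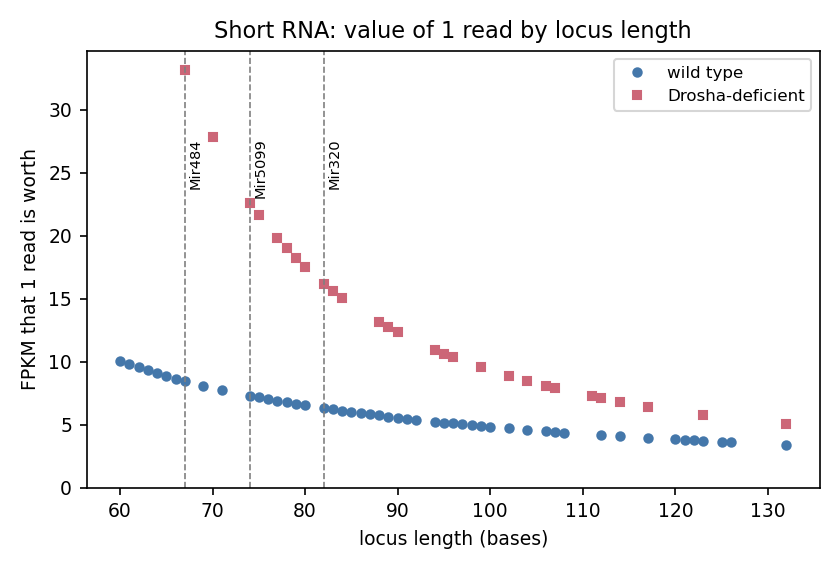
The FPKM that 1 read is worth is plotted against locus length in bases for the short RNA libraries of wild-type (circles) and Drosha-deficient cells (squares), with dashed lines at the lengths of the 3 members. It was read from the values at the lengths shown, except at 82 bases in wild type (interpolated) and 67 bases in Drosha-deficient cells (extrapolated). At 74 bases 1 read is worth 7.31 FPKM in wild-type and 22.6 FPKM in Drosha-deficient cells, and the gap narrows as loci get longer.

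The make-up of the microRNA reads shifted to 2 of the members. Over the 131 microRNA rows of 60 to 140 bases, the short RNA libraries held 506792 reads in wild-type and 14281 in Drosha-deficient cells. Mir5099 made up 4.09% of them in wild-type and 64.3% in Drosha-deficient cells, and Mir320 made up 0.0708% and 15.9%. Together these rows were 4.16% of the wild-type and 80.3% of the deficient microRNA reads, while Mir484 was 0.00868% and 0. The 128 other rows fell from 485672 to 2816 reads, 196.9-fold lower relative to library size. Without Mir293, which went from 173624 to 20 reads, the ratio was 127.4-fold. The median row was 48.7-fold lower (log2 difference -5.61) with 1 read added to each count. Many rows had 0 reads in the deficient library, so this median depends on the added read, unlike the 2 pooled ratios. Next after Mir5099 and Mir320 in the deficient library came Mir292, of the Mir290 cluster, with 1073 reads against 88095 in wild-type cells.

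In long RNA the members again differed from each other. Of 13933 rows compared, 13.1% were called, 6.26% higher and 6.89% lower, and of 115 microRNA rows 24 (20.9%) were higher and 62 (53.9%) lower. Mir320 was at 177.6 FPKM in wild-type and 201.6 FPKM in Drosha-deficient cells (log2 difference 0.18), from 128 and 122 reads. The ratio of its reads relative to library size was 0.790, with an interval of 0.611 to 1.02, so a difference was not detectable at this depth. Mir484 was at 124.9 and 23.9 FPKM, 5.23-fold lower in Drosha-deficient cells (log2 difference -2.34). It rested on 58 reads (44.04 to 74.98) and 8 reads (3.45 to 15.8), 8.75-fold lower relative to library size (4.16 to 21.2).

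Mir5099 had the highest long RNA level of all microRNA rows compared in both genotypes. It was at 32010 FPKM in wild-type and 3014 FPKM in Drosha-deficient cells, 10.6-fold lower (log2 difference -3.41), from 18603 and 1371 reads. In reads relative to library size it was 16.4-fold lower (15.5 to 17.3). It made up 73.8% of the microRNA reads of the wild-type and 38.1% of those of the deficient long RNA library. The fall of Mir5099 in long RNA thus exceeded that in short RNA on either scale, with 10.6-fold lower against 1.37-fold higher in FPKM, and 16.4-fold lower against 2.57-fold lower in reads. The fractions were normalised separately, and this difference between fractions was not tested.

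In mRNA, selected by its poly(A) tail, 16.6% of 14752 rows were called, 8.64% higher and 7.93% lower, and of 72 microRNA rows 38 (52.8%) were higher and 24 (33.3%) lower. Mir320 was at 16.5 FPKM in wild-type and 159.9 FPKM in Drosha-deficient cells, 9.69-fold higher (log2 difference 3.20). Its reads were 11 (5.49 to 19.7) and 86 (68.8 to 106), a ratio of 6.88 relative to library size (3.66 to 14.3). By FPKM, higher microRNA rows were common in this fraction: the median log2 difference of the 69 other microRNA rows was 1.09, and Mir320 ranked 9 of 72. Mir138-1 and Mir351, whose differences equal this median, each had 0 reads in wild-type cells and 1 in Drosha-deficient cells. In reads relative to library size, 17 of 58 microRNA rows of 60 to 140 bases were higher and 21 lower. In the same fraction 5 of 7 rows of the Mir290 cluster, which need Drosha, were called higher.

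Mir5099 was lower in mRNA as in long RNA, at 3371 FPKM in wild-type and 470.0 FPKM in Drosha-deficient cells, 7.17-fold (log2 difference -2.84). Its 1762 and 185 reads were 10.8-fold lower relative to library size (9.29 to 12.7). Mir484 was at 2.46 FPKM in wild-type cells, which was 1 read, and at 0 in Drosha-deficient cells. It was called lower by the 2-fold rule (log2 difference -1.79), but both counts are at or under 3 reads, so no fold is given.

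**Figure D5:**
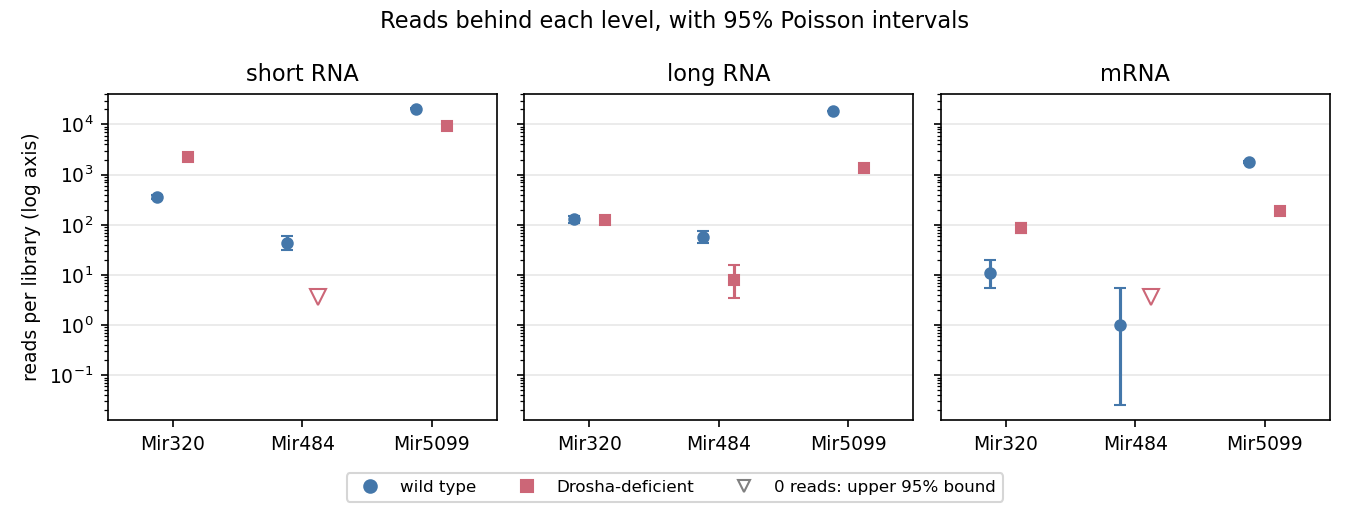
Points give the reads behind each level (log axis) in the wild-type (circles) and Drosha-deficient (squares) libraries of the 3 fractions, with 95% Poisson intervals, and open triangles give the upper bound where 0 reads were counted. The short RNA reads of Mir5099 fall from 20717 to 9188 while those of Mir320 rise from 359 to 2277, and the Mir484 point in mRNA is a single read.

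In short RNA none of the 6 rows next to the members passed the filter, and those of Mir5099 passed it in no fraction. The rows next to Mir320 and Mir484 were compared in long RNA and mRNA, and none of them was called. In the annotation 0 genes overlapped any of the 3 loci. Mir320 lies 38 bases from the near edge of the row of Polr3d, which encodes a subunit of RNA polymerase III. Polr3d was at 14.5 FPKM in wild-type and 23.0 FPKM in Drosha-deficient mRNA, and at 9.27 and 10.3 FPKM in long RNA, called in neither. Mir484 lies between Marf1 and Nde1. Marf1, an RNA-binding regulator first known from oocytes, is transcribed from the minus strand and begins 352 bases from the hairpin, and its mRNA level was 12.5 FPKM in both genotypes. Nde1, a dynein partner needed in neural progenitors, begins on the plus strand 3583 bases beyond it and was at 57.9 and 66.9 FPKM in mRNA. Its long RNA levels were 29.9 and 29.2 FPKM. Mir5099 stands in a gene-poor stretch, with its nearest rows D630036H23Rik and RP23-96D14.2 at 126760 and 282271 bases and both under 0.1 FPKM in each library.

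Other microRNAs reported to bypass Drosha were looked up by name. Mir1983, which comes from a tRNA gene, was the only one of the 8 listed that had a row of its own name. Mir451a was listed apart from these 8 as a contrast. Mir1983 went from 426.0 to 85.5 FPKM in short RNA (log2 difference -2.30), from 125 and 17 reads, so it was called lower. Its long RNA level was 10.9 and 9.46 FPKM, called in neither direction. Mir451a, a microRNA known for needing Drosha but not Dicer, also had its own row and was listed at 0 in all 6 libraries.

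The genes that act before, beside and after the Drosha cut were compared in mRNA, where 21 of 22 listed genes passed the filter, 5 were called higher, 1 lower and 15 neither. Of all mRNA rows, 8.64% were higher and 7.93% lower. Their median log2 difference was 0.61, against 0.01 over all rows. Of the cutting enzyme, Drosha was the 1 gene called lower, while Dgcr8, whose own transcript Drosha is known to cleave, was at 12.4 FPKM in wild-type and 73.5 FPKM in Drosha-deficient cells. Of the 6 export genes 0 were called. Xpo5, the exporter of ordinary hairpins, was at 31.2 and 41.2 FPKM, and Xpo1, reported to export capped hairpins, at 137.1 and 209.2 FPKM. Phax, an adaptor between capped RNA and Xpo1, was at 41.6 and 61.8 FPKM.

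Of the 4 genes of Dicer processing and lariat debranching 0 were called either. Dicer1 was at 16.6 FPKM in wild-type and 26.0 FPKM in Drosha-deficient mRNA, and its partner Tarbp2 at 31.7 and 20.7 FPKM. The called genes downstream of Dicer were in loading and silencing, where 4 of 9 were higher, against the 8.64% of all rows. Ago1, an Argonaute that holds the mature microRNA, was at 14.0 and 38.6 FPKM, and Tnrc6a, which links Argonaute to deadenylation, at 13.0 and 31.1 FPKM. Tnrc6b and the chaperone Hsp90aa1 were the others. In long RNA 20 of the 22 genes were compared, with Dgcr8 and Tnrc6a higher, Drosha lower and 17 called in neither direction, against 13.1% of all long RNA rows called.

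The rows whose log2 differences over the 3 fractions were most like each member's were found among 2296 rows compared in all fractions, by Euclidean distance. Nearest to Mir320 were Celf2, an RNA-binding protein gene, at a distance of 1.12, Gm10180 at 1.30 and the 7SK RNA gene Rn7sk at 2.04. Rn7sk was at 8450 and 33603 FPKM in short RNA. Its levels were 7811 and 8491 FPKM in the long fraction, and 129.9 and 1067 FPKM in mRNA. Nearest to Mir484 were Mir143 at 1.34, Spaca6 at 1.36 and Mir20b at 1.39, of which Mir20b went from 30105 to 105.1 FPKM in short RNA and from 36.5 to 5.30 FPKM in long RNA. Nearest to Mir5099 were Fabp3, a fatty acid binding protein gene, at 1.05, the pseudogene Rps15a-ps3 at 1.40 and Fau, which encodes a ribosomal protein, at 1.44. Fabp3 had 91.1 and 9.05 FPKM in the long fraction, 176.2 and 18.3 FPKM in mRNA, but 4.59 and 2.92 FPKM in short RNA. These distances are over 3 values from 1 pair of libraries each and describe likeness in these libraries only.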

How the data were processed

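RNA of wild-type and Drosha-deficient mouse ES cells was compared in 6 libraries. The other 6 samples, RNA of Dnmt1-deficient cells and DNA methylation, were not analysed here. The authors deposited FPKM values per gene, wild type first and Drosha-deficient after it, per the file headers. The submitters' processing notes name TopHat2 2.0.10, Cuffdiff, Cufflinks 2.1.1 and bcl2fastq 1.8.4, and the build mm10/GRCm38. Annotation, library scaling and strand setting: not given in the sources used here. Per the labels' protocols, long and short RNA were separated with a kit, mRNA was selected by oligo-dT, and all libraries were made with a small RNA kit. By elimination, the long RNA table was taken to hold the samples whose titles say total RNA.

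Log2 differences of FPKM used a pseudocount of 1 FPKM, and those of reads added 1 read to each count. Rows needed the authors' status OK and at least 1 FPKM in 1 library. Reads were recovered for loci of 60 to 140 bases as whole multiples of the FPKM of 1 read, within 0.05 reads. Of the values checked, 89 of 89 and 36 of 36 (short RNA, wild type and Drosha-deficient), 373 of 374 and 375 of 375 (long RNA), and 160 of 160 and 189 of 189 (mRNA) came out whole. Only lengths at which the FPKM of 1 read (the step) was itself fitted to these values were checked. This outcome was therefore largely fixed in advance. Where no row of that length gave the step, it was interpolated over length or, where close lengths were missing, taken from a fitted curve. In Drosha-deficient short RNA and mRNA the shortest length with a step was 70 bases, so that of Mir484 (67 bases) was extrapolated. Rows without a step of their own length did not always come out whole, such as Mir295 at 58.4, Mir503 at 58.6 and Mir150 at 2.73 reads in Drosha-deficient short RNA. The recovery and the 2-fold rule were run on simulated data. The changes simulated for the rule held no noise, so its outcome was largely fixed in advance. The recovery was simulated with an assumed spread of fragment lengths. Read rates were divided by the library's scale in fragments, fitted from longer rows. Intervals of ratios came from exact binomial 95% intervals. Hairpins were folded with ViennaRNA 2.7.2 (minimum free energy). Python 3.11.15, pandas 2.3.3, numpy 2.4.6, scipy 1.17.1 and matplotlib 3.10.9 were used.

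The named genes were the 3 members, listed genes of hairpin processing, export, dicing and loading, listed microRNAs reported to bypass Drosha, the nearest row on each side of a member, the 3 rows most like it, and the microRNA rows next to it in order. The members and lists were chosen with earlier results of these data known. Pseudocounts of 0.1 and 5, a minimum of 5 FPKM or none, rows of other status and 2 centrings were tried, and reads per library were added after seeing the data.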

Additional observations from a re-analysis of the deposited data

How the results depend on the processing

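No paired analysis was possible because each genotype has 1 library per fraction, and for the same reason no replicate could be left out. Of 179 recomputed values, 126 kept their direction and call, counts staying within 1.5 times, though some changed in size, such as Mir484 when centred on structural RNAs (-10.06 in short RNA and -2.76 in mRNA, against -8.55 and -1.79). The sign changed in 3. Mir320 in long RNA, under 2-fold both ways, went from 0.18 to -0.34 in reads. The other two, past 2-fold after the change, were Mir5099 in short RNA, at -1.06 when centred on structural RNAs and at -1.36 in reads, against 0.45. The value when centred follows from subtracting the structural RNA median and the reversal in reads from the unequal FPKM of 1 read. For the other changes the cause was not tested.

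On the log2 scale, Mir320 in short RNA was 2.51 when centred on structural RNAs and 2.47 in reads, and in mRNA 2.23 when centred, against 3.20. Mir484 in short RNA was -11.86 and -6.24 with pseudocounts of 0.1 and 5 and -5.68 in reads, and in mRNA it was -4.68 and, no longer past 2-fold, -0.58 with these pseudocounts. Mir5099 was -3.21 in long RNA and -3.81 in mRNA when centred on structural RNAs, and -4.03 and -3.43 in reads.

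The median over microRNA rows in short RNA was -8.19 and -4.79 with pseudocounts of 0.1 and 5, -5.86 with a minimum of 5 FPKM and -7.19 when centred on structural RNAs. In long RNA it was -1.89 and -0.50 with these pseudocounts, -2.16 with a minimum of 5 FPKM, -1.08 with none and -1.11 when centred. In mRNA it was 1.59 and 0.42 with these pseudocounts, 1.44 with a minimum of 5 FPKM, 0.88 with none, 0.12 when centred and 0.50 in reads.

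With a pseudocount of 5, rows called higher and lower numbered 131 and 279 in short RNA, 315 and 335 in long RNA and 551 and 373 in mRNA, against 384 and 477, 872 and 960, and 1275 and 1170. MicroRNA rows called higher then numbered 11 in long RNA, and 19 higher and 9 lower in mRNA. With a pseudocount of 0.1, 1592 rows were lower in long RNA and 1884 in mRNA. With a minimum of 5 FPKM, 542 rows were higher in long RNA, 15 of them microRNA rows, and 779 lower in mRNA, with 20 microRNA rows higher and 10 lower. With all rows except failed ones, 822 were higher and 883 lower in short RNA. Centred on structural RNAs, 39 were higher and 1847 lower in short RNA, 615 lower in long RNA, and 296 higher and 7046 lower in mRNA, with 19 microRNA rows higher.

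Depth limited Mir484 most, with 44 and 0 reads in short RNA and 1 and 0 in mRNA.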
